A study of Mus musculus with 6 samples.

Results

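Ribosome assembly and nucleolar factors are the proteins that transcribe, modify, fold and cut ribosomal RNA in the nucleolus and load ribosomal proteins onto it. The set described here holds 40 named genes, found by symbol among the 55335 genes of each deposited file, and each symbol belonged to 1 gene ID. The libraries came from mouse embryos at the 4-cell stage and were made with Smart-Seq2, in which polyadenylated RNA of very small samples is copied into full-length cDNA with an oligo-dT primer and amplified. There were 3 libraries of embryos treated with DRB and 3 libraries of control embryos (Con). DRB, a nucleoside analogue, blocks elongation by RNA polymerase II through inhibition of the CDK9 kinase. Zygotes were placed in KSOM medium with 20 µM DRB at 6 h after fertilization, stayed in it for 20 h, were washed, and were cultured for another 26 h before collection. The Con label names no treatment, and the sources used here give neither the strain, nor any vehicle, nor the number of embryos per library. The hours above were recorded for DRB embryos only, so whether Con embryos were collected at the same hour is not known here.

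A ribosome begins as one long precursor RNA made by RNA polymerase I, on which the small-subunit processome assembles while guide snoRNA particles methylate and pseudouridylate it. Cleavage then separates the precursors of the small and the large subunit, which mature along separate routes before export to the cytoplasm. In the mouse embryo the oocyte leaves a store of ribosomes, and nucleolus precursor bodies turn into active nucleoli during the first cleavages, after ribosomal genes are switched on.

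All values are FPKM (fragment counts divided by transcript length and sequencing total), which can be set side by side between genes because of the division by length. Depth was estimated from the steps of low FPKM values, and came to 22900000 to 24400000 fragments in DRB libraries and 23100000 to 23600000 in Con libraries. Pearson correlations between libraries, over genes, were 0.909 to 0.937 within DRB, 0.935 to 0.944 within Con and 0.869 to 0.915 between the groups. Mitochondrial genes took 25.7%, 23.9% and 26.4% of all FPKM in DRB replicates 1 to 3, against 12.2%, 18.7% and 20.0% in Con replicates 1 to 3. All 12 markers of the preimplantation embryo passed the filter, at very different levels. Dppa3 made up nearly all of their summed FPKM. Carm1 only just met the filter, at 0.04, 2.27 and 0.49 FPKM in DRB and 2.32, 0.03 and 1.55 FPKM in Con. Ooep was also low, at 2.18, 1.71 and 1.35 FPKM in DRB and 7.14, 0.87 and 0.5 FPKM in Con. Of 10 cumulus cell markers 6 were listed at 0 in all 6 libraries (Amh, Cyp19a1, Fshr, Has2, Inha and Ptx3). The list summed to 144 to 276 FPKM in DRB and 213 to 387 FPKM in Con, most of it Gja1, which embryos also express. Amhr2 was the next highest, at 22.8, 19.8 and 28.2 FPKM in DRB and 17.9, 23.4 and 17.9 FPKM in Con. The 7 sperm markers summed to 7.30 to 17.4 FPKM in DRB and 8.97 to 19.1 FPKM in Con, with Tnp2 listed at 0, and the 6 blood cell markers to at most 87.3 FPKM in DRB and 114 FPKM in Con. No marker of these lists was called. The filter kept only 2 of the cumulus cell, 1 of the sperm and 4 of the blood cell markers, so the rest were not tested.

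The promoters of 34 of the 40 genes were matched by symbol to RefSeq windows (GRCm38.p6, 250 bases before to 50 after the start). The windows of Imp4, the single factor that passed the test below, and of Rrn3, a polymerase I factor whose groups also did not overlap, are printed with the E-box CACGTG in capitals; both lie on the plus strand, at chr1:34439579-34439878 and chr16:13780449-13780748.
Imp4: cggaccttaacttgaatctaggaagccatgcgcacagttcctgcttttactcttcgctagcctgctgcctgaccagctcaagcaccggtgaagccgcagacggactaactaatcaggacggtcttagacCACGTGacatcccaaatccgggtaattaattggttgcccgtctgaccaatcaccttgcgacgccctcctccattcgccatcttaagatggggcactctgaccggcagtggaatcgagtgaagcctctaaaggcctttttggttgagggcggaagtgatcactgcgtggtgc
Rrn3: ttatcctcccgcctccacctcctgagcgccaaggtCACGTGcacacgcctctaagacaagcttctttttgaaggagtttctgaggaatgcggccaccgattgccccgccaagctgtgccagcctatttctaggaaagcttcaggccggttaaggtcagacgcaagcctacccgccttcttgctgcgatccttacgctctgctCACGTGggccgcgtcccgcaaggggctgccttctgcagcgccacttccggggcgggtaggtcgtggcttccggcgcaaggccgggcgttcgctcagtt

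The E-box, a palindrome known as the core site of MYC and its relatives, was found in 9 of the 34 matched genes (26.5%). It was in 8.09% of all 27025 genes with a window, in 7.15% of all 32851 windows and in 12.1% of the matched genes that passed the expression filter. Imp4 had its E-box 121 bases before the start, and Rrn3 had 2, at 215 and 48 bases before it. The E-boxes of the other 7 genes, shown with up to 10 bases on each side so that their flanks can be compared, lay between 60 bases before and 37 bases after the start.
Nop2: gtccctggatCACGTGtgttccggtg
Utp18: gagcgccggtCACGTGgcttgcggcg
Pes1: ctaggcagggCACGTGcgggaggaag
Wdr43: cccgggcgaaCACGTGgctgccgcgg
Tsr1: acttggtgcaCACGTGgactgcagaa
Ltv1: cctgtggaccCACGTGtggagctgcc
Utp20: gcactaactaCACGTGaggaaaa

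Genes with an E-box did not share a direction. Their log2 fold changes, DRB over Con, had a median of -0.09, with 6 of 9 negative, against -0.23 and 16 of 25 in the matched genes without one. Of the other motifs searched on both strands, ACTACAA was in 14.7% of matched members and 3.78% of all genes, and GGGCGG in 67.6% and 38.2%. CATGCGC was in 11.8% and 4.41%, and TATAAA in 5.88% and 15.7%. Among the genes that passed the filter, which are the nearer comparison, the shares were 5.12% for ACTACAA, 65.7% for GGGCGG, 8.70% for CATGCGC and 8.84% for TATAAA. A match of letters is a description of the window and shows no bound factor.

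The assembly factors were abundant at the 4-cell stage and summed to a level that differed between the groups by less than the replicates did. Their mean over all libraries was 11.1 to 3369 FPKM with a median of 85.0 FPKM, against a median of 7.87 FPKM over all 11893 genes tested, and all 40 passed the filter of at least 1 FPKM in at least 3 libraries. Together they took 1.03%, 0.820% and 0.718% of all FPKM in DRB replicates 1 to 3, against 0.963%, 0.819% and 0.859% in Con replicates 1 to 3. The summed level was 9802 ± 795 FPKM in DRB and 10060 ± 979 FPKM in Con (SD, n = 3 each). In bulk samples fewer cells and less RNA per cell cannot be told apart.

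Imp4 was the only one of the 40 to pass limma's test, fitted across all 11893 genes with Benjamini-Hochberg adjustment, and it fell. That is 1 of the 40, a higher share than the 0.950% of all tested genes called in that direction, and 0 of the 40 were called higher, where the share over all genes was 1.53%. At an unadjusted p below 0.05, 2 members were lower (5.00%, against 10.5% of all genes) and 2 were higher (5.00%, against 7.53%). The 3 DRB libraries lay entirely below the 3 Con libraries for 6 members (15.0%, against 13.9% of all genes) and entirely above them for 2 (5.00%, against 9.85%). At an unadjusted p and by overlap, the members' shares thus lay near or below those of all tested genes, and the share called lower rests on 1 gene. The median log2 fold change of the 40 was -0.09, the same as over all tested genes (-0.09), and 24 of the 40 were negative, against 56.0% of all genes. The sign of that median depended on the scaling: it was 0.02 after median-of-ratios scaling and 0.06 with mitochondrial genes left out. The 39 members other than Imp4 had log2 fold changes of -0.63 to 0.83 with limma adjusted p-values of 0.195 to 0.988.

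**Figure D1:**
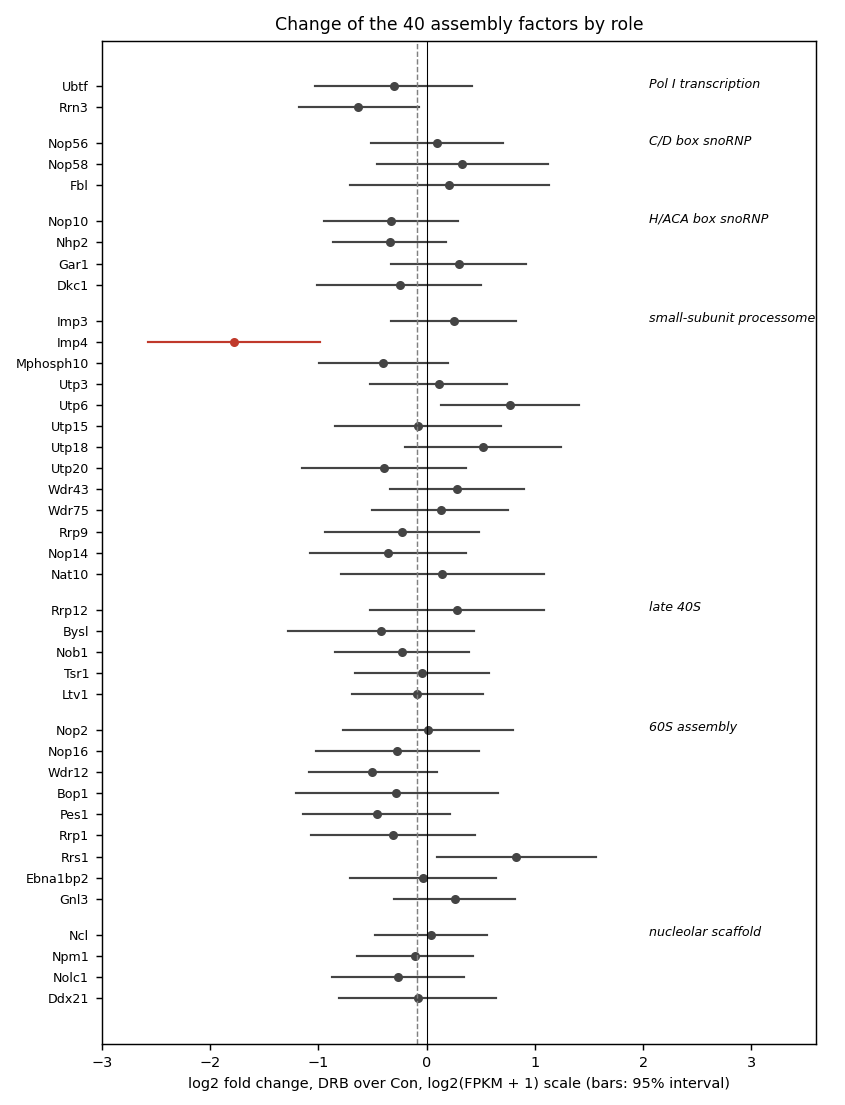
Log2 fold changes of the 40 factors, DRB over Con, on the log2(FPKM + 1) scale, by role, with limma's 95% intervals as bars; the dashed line is the median of all tested genes (-0.09). Imp4, in red, lies at -1.78, away from the other 39, which run from -0.63 to 0.83.

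The intervals show how much change the data still allow. For 21 of the 40 (52.5%) the 95% interval, not adjusted for the number of genes, lay inside -1 to 1 on the log2 scale, so that a change of that size was outside it; over all tested genes this held for 17.0%. For the other members a change of that size lay within the interval, and a missed threshold does not show that the groups were alike. Estimated with the length of the longest coding transcript, the fewest fragments behind any member value were about 600, for Bop1.

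Libraries of the same group differed among themselves. DRB replicate 1 was the highest of the 6 libraries for 18 of the 40 members (45.0%, against 27.8% of all tested genes), and Con replicate 1 for 15 (37.5%, against 22.4%). DRB replicate 3 was highest for 0 members and Con replicate 3 for 1. Relative to the Con mean, the median member deviated by 0.24, -0.22 and -0.24 (log2) in DRB replicates 1 to 3 and by 0.19, -0.08 and -0.07 in Con replicates 1 to 3. Over all tested genes the medians were 0.05, -0.09 and -0.19 in DRB and 0.06, -0.01 and -0.04 in Con. In DRB replicate 3 the median of all tested genes was thus lowered as well. DRB replicate 1 exceeded both other DRB libraries for 27 members, a count for which no share over all genes was taken. The coefficient of variation among replicates had a median of 25.4% in DRB and 18.6% in Con. Gene by gene, it was higher in DRB than in Con for 21 of the 40. It reached 67.1% for Fbl in DRB and was as low as 1.40% for Rrp1 in DRB.

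**Figure D2:**
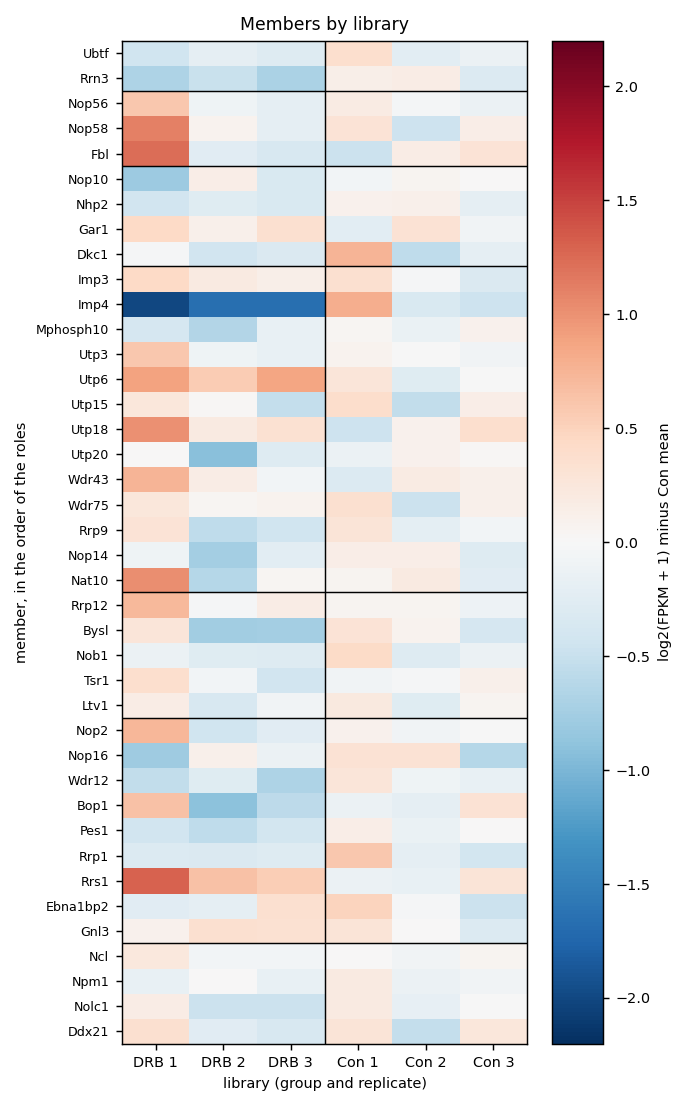
Each row is a factor and each column a library (DRB replicates left, Con replicates right); the colour is log2(FPKM + 1) minus the Con mean, and lines separate the roles. Imp4 is the single row that is strongly blue in all 3 DRB libraries, and DRB replicate 1 is the highest of the 6 libraries for 18 rows.

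The small-subunit processome is the early particle that folds the front part of the precursor RNA and prepares its first cuts. Imp4, whose product joins those of Imp3 and Mphosph10 in one subcomplex that bridges the precursor and the U3 snoRNA, had 25.0, 32.2 and 32.0 FPKM in DRB replicates 1 to 3, against 180.2, 81.9 and 75.0 FPKM in Con replicates 1 to 3. The groups did not overlap, and Con replicate 1 was far above the other Con libraries. Imp4 (ENSMUSG00000026127.13, chromosome 1, 34439851 to 34449356, plus strand, GRCm38) averaged 29.7 ± 4.10 FPKM in DRB and 112 ± 58.9 FPKM in Con (SD, n = 3 each). Its log2 fold change was -1.78 ± 0.36 (SE; 95% interval -2.57 to -0.98), with a limma adjusted p of 0.0293. The direction held in all 6 fits that left out 1 library, with log2 fold changes of -2.01 to -1.38, but the call did not. The limma adjusted p was 0.0967, 0.0651 and 0.0557 without DRB replicates 1, 2 and 3, and 0.0725, 0.0573 and 0.0485 without Con replicates 1, 2 and 3. With mitochondrial genes, whose share was higher in DRB, left out and the rest rescaled, the log2 fold change was -1.63 (limma adjusted p 0.0371). The call was also lost with a pseudocount of 0.1 (limma adjusted p 0.0511) and with no filter (0.238). An antisense gene, Gm28306, covers 2.44% of the exon bases of Imp4, and reads of the pair cannot be told apart without strand; it stood at 9.67, 11.2 and 3.72 FPKM in DRB and 3.63, 5.37 and 15.3 FPKM in Con.

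Neither partner of Imp4 was called. Imp3 had 339.8, 287.3 and 275.6 in DRB, against 320.1, 247.0 and 200.6 FPKM in Con. The log2 fold change of Imp3 was 0.25 (95% interval -0.33 to 0.83, limma adjusted p 0.676), an interval that does not meet that of Imp4; the difference between the genes was not tested. Mphosph10 stood at 58.4, 47.8 and 67.4 FPKM in DRB and 77.8, 68.6 and 81.3 FPKM in Con. Its groups did not overlap, by a narrow margin, but its log2 fold change of -0.40 had a limma adjusted p of 0.488. With mitochondrial genes left out they overlapped, since DRB replicate 3 (26.4% mitochondrial) was scaled up more than Con replicate 2 (18.7%).

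Utp6, a protein with repeats of the half-a-TPR type in the processome, leaned the other way. It had 57.8, 46.0 and 57.4 in DRB, against 37.5, 25.8 and 30.8 FPKM in Con, so that all DRB libraries were above all Con libraries. The log2 fold change of Utp6 was 0.77 ± 0.29 (SE; 95% interval 0.13 to 1.41) with an unadjusted p of 0.0233 and a limma adjusted p of 0.195.

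Wdr43, a WD-repeat protein of the same particle, was its most abundant member at 1412, 947.6 and 807.1 FPKM in DRB and 683.5, 960.6 and 918.3 FPKM in Con. The groups overlapped, and DRB replicate 1 alone was above all Con libraries (log2 fold change 0.28, limma adjusted p 0.667). Utp18, another WD-repeat protein, had a log2 fold change of 0.52 and Utp20, a very large scaffold, of -0.39 (limma adjusted p 0.442 and 0.606). The others (Utp3, Utp15, Wdr75, Rrp9, Nop14 and the RNA acetyltransferase Nat10) had log2 fold changes of -0.36 to 0.14. The 13 processome genes summed to 2517, 1767 and 1663 in DRB, against 1793, 1786 and 1768 FPKM in Con. DRB replicate 1 lay above all Con libraries and DRB replicate 3 below them, while DRB replicate 2 was level with the lowest Con library. Wdr43 was the largest single part of the sum in every library.

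**Figure D3:**
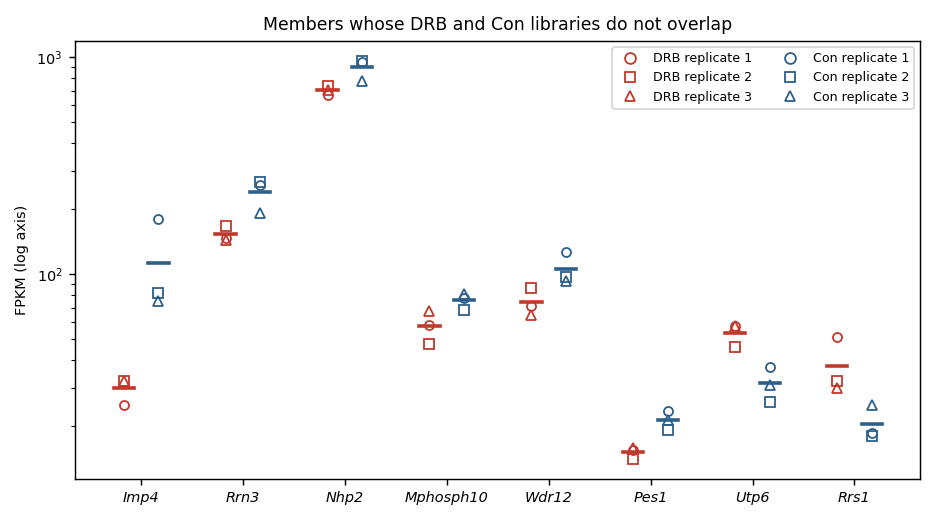
FPKM (log axis) of the 8 members whose groups do not overlap, DRB left and Con right for each gene; symbols give the replicate and bars the group mean. Imp4, Rrn3, Nhp2, Mphosph10, Wdr12 and Pes1 are lower and Utp6 and Rrs1 higher in DRB, and of these 8 only Imp4 passed the adjusted threshold.

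Rrn3 and Ubtf act where ribosomal RNA synthesis begins. Rrn3, also known as TIF-IA, brings RNA polymerase I to the promoter, and Ubtf, a protein with HMG boxes, keeps ribosomal genes in an open form. Rrn3 had 146.0, 167.4 and 144.1 in DRB, against 256.6, 264.9 and 191.8 FPKM in Con. The groups did not overlap. Rrn3 had a log2 fold change of -0.63 ± 0.25 (SE; 95% interval -1.18 to -0.07), with an unadjusted p of 0.0310 and a limma adjusted p of 0.221. It was negative in all 6 fits that left out 1 library (-0.77 to -0.54). With median-of-ratios scaling and with mitochondrial genes left out it was -0.52 and -0.48 (limma adjusted p 0.332 and 0.360). Under both scalings its unadjusted limma p was no longer below 0.05. Ubtf stood at 14.4, 17.3 and 16.2 FPKM in DRB and 25.9, 16.7 and 18.1 FPKM in Con (log2 fold change -0.30, limma adjusted p 0.689).

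The C/D box particle methylates ribose in ribosomal RNA; Fbl is its methyltransferase, and Nop56 and Nop58 hold the guide RNA. Nop58 had 761.4, 369.6 and 304.6 in DRB, against 433.5, 257.1 and 387.3 FPKM in Con. Fbl had 218.7, 78.3 and 72.7 in DRB, against 66.4, 104.6 and 114.8 FPKM in Con. Both were highest in DRB replicate 1, with the other DRB libraries within or near the range of Con. Their log2 fold changes were 0.33 and 0.21 (limma adjusted p 0.691 and 0.849), and without DRB replicate 1 they were -0.06 and -0.29. Fbl without Con replicate 1 was at -0.02. Its values are uncertain, since 73.0% of the 50-base words of its longest transcript also occur in transcripts of other genes; for Nop56 the share was 37.6%. Nop56 was likewise highest in DRB replicate 1, at 417.8, 258.9 and 243.5 FPKM in DRB and 314.2, 268.3 and 255.0 FPKM in Con (log2 fold change 0.10).

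The H/ACA box particle converts uridine to pseudouridine; Dkc1 is the enzyme, and Nop10, Nhp2 and Gar1 are its core partners, which also serve telomerase. Nhp2 had 665.2, 738.3 and 707.7 in DRB, against 947.3, 962.8 and 777.2 FPKM in Con, with no overlap between the groups. Its log2 fold change was -0.34 (95% interval -0.86 to 0.18, limma adjusted p 0.488). Nop10 had 200.4, 385.6 and 275.3 in DRB, against 334.4, 361.8 and 351.0 FPKM in Con, so that DRB spanned the whole range of Con (log2 fold change -0.33, limma adjusted p 0.594). Dkc1 and Gar1 had log2 fold changes of -0.25 and 0.30. Over the 4 genes the summed level was 1074, 1286 and 1163 FPKM in DRB, below the 1568, 1485 and 1301 FPKM in Con. The gap was narrow, with 1286 FPKM in DRB replicate 2 against 1301 FPKM in Con replicate 3. That separation was lost with mitochondrial genes left out, since DRB replicate 2 (23.9% mitochondrial) was then scaled up more than Con replicate 3 (20.0%). This difference in scaling exceeded the gap, so the groups overlapped. Median-of-ratios scaling was not checked for this sum. The C/D sums overlapped, with 1398, 707 and 621 FPKM in DRB and 814, 630 and 757 FPKM in Con. The difference between the 2 kinds of particle was not tested.

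**Figure D4:**
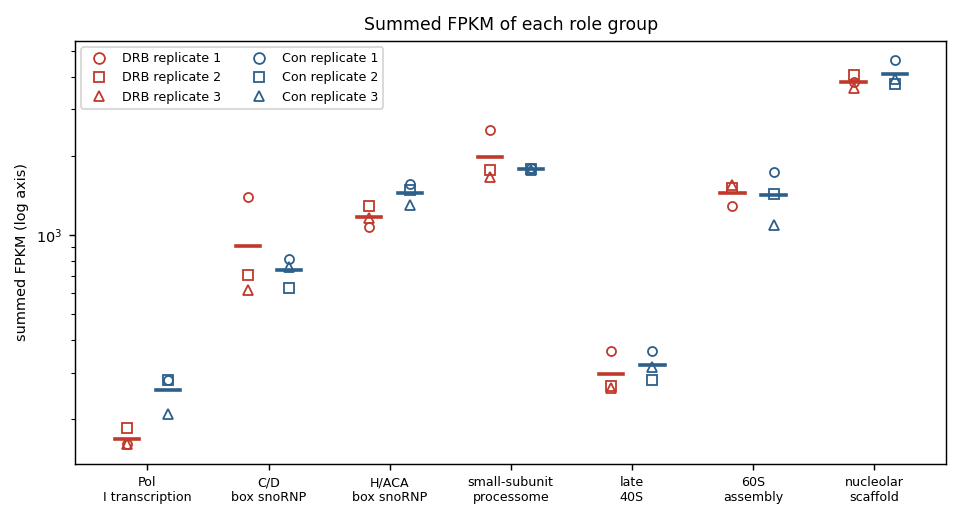
Summed FPKM (log axis) of each role group in each library, DRB left and Con right, with group means as bars. On the deposited FPKM scale, the sums of the polymerase I factors and, by a narrow margin, of the H/ACA box particle are lower in all DRB libraries, which was not tested. Among single tested genes this held for 13.9%. The H/ACA margin is lost with mitochondrial genes left out. The polymerase I sum is mostly Rrn3, and Ubtf, its other gene, overlaps between the groups. The sums of the C/D box particle and the processome are highest in DRB replicate 1.

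Assembly of the large subunit runs through the complex of Pes1, Bop1 and Wdr12 and through factors such as Rrs1, which helps to bring in the 5S particle. Rrs1 had 51.4, 32.3 and 29.8 in DRB, against 18.5, 18.0 and 24.9 FPKM in Con. All DRB libraries were above all Con libraries, and replicate 1 was the highest of them. Its log2 fold change, the highest of the 40, was 0.83 ± 0.33 (SE; 95% interval 0.10 to 1.56), with an unadjusted p of 0.0292 and a limma adjusted p of 0.217.

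Wdr12 had 71.3, 86.6 and 64.9 in DRB, against 126.1, 97.3 and 93.1 FPKM in Con (log2 fold change -0.50, limma adjusted p 0.365). Pes1 stood at 15.5, 14.1 and 15.8 FPKM in DRB and 23.5, 19.1 and 21.2 FPKM in Con (log2 fold change -0.46, limma adjusted p 0.481). In both the groups did not overlap. Bop1, the third member of their complex, had 34.9, 11.3 and 14.3 in DRB, against 20.1, 19.0 and 27.5 FPKM in Con; its groups overlapped, with DRB replicate 1 the highest of all libraries (log2 fold change -0.28). Gnl3, the GTPase nucleostemin, was the most abundant of the large-subunit factors at 668.7, 792.6 and 785.9 FPKM in DRB and 763.3, 625.0 and 508.1 FPKM in Con (log2 fold change 0.26, limma adjusted p 0.650). Nop2, an rRNA cytosine methyltransferase, Nop16, Rrp1 and Ebna1bp2 had log2 fold changes of -0.31 to 0.01.

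Later steps of the small subunit showed no call. Bysl, needed for release of the pre-40S particle, had 22.0, 10.4 and 10.4 in DRB, against 22.6, 19.2 and 13.9 FPKM in Con; replicate 1 of DRB lay within the range of Con and the other DRB libraries below it (log2 fold change -0.42, limma adjusted p 0.635). Rrp12, an export factor, had 16.6, 9.54 and 11.1 in DRB, against 10.3, 10.2 and 8.92 FPKM in Con (log2 fold change 0.28, limma adjusted p 0.747). Tsr1, a GTPase-like protein, was the most abundant of them by a narrow margin over Ltv1, at 130.2, 96.1 and 74.8 FPKM in DRB and 95.3, 98.4 and 108.8 FPKM in Con. Its log2 fold change of -0.04 turned positive under both other scalings, and 31.1% of its 50-base words also occur in transcripts of other genes, mostly of Srr, which overlaps it on the opposite strand. Nob1, the nuclease that makes the final cut of the small-subunit RNA, and the export adaptor Ltv1 had log2 fold changes of -0.23 and -0.09.

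None of the 4 genes grouped as nucleolar scaffold was called. Npm1, the chaperone that makes up much of the granular layer of the nucleolus, was the most abundant of the 40 at 3110, 3521 and 3091 FPKM in DRB and 3989, 3201 and 3300.5 FPKM in Con. The groups overlapped, and its log2 fold change was -0.11 (95% interval -0.64 to 0.43, limma adjusted p 0.874), with a positive sign after rescaling. Of the 50-base words of the longest Npm1 transcript 40.9% also occur in transcripts of 11 other genes, so its reads may be split with processed pseudogenes. Ncl, nucleolin, had 438.5, 355.7 and 359.1 in DRB, against 374.5, 353.2 and 390.3 FPKM in Con (log2 fold change 0.04, 95% interval -0.48 to 0.56). Nolc1, a snoRNP chaperone, stood at 175.9, 112.6 and 112.5 FPKM in DRB and 179.8, 137.4 and 156.1 FPKM in Con (log2 fold change -0.26, limma adjusted p 0.683). The RNA helicase Ddx21 had a log2 fold change of -0.08.

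A list of 123 further ribosome assembly genes stood for the wider pathway, and 122 of them passed the filter. Limma called 0 of the 122 in either direction, with a lowest adjusted p of 0.0782. Over all tested genes 0.950% were called lower and 1.53% higher, so few calls would fall in a list of this length. At an unadjusted p below 0.05, 8 of the 122 were lower (6.56%, against 10.5% of all tested genes) and 2 were higher (1.64%, against 7.53%). Their median log2 fold change was -0.11. The farthest on either side, chosen after their values were seen, were Wdr18 and Zfp622. Wdr18, of a complex that remodels the large-subunit precursor, had 13.5, 11.0 and 8.26 in DRB, against 32.8, 26.6 and 23.2 FPKM in Con (log2 fold change -1.27, limma adjusted p 0.0782). Zfp622, the counterpart of yeast Rei1 that acts on the cytoplasmic large subunit, had 1016, 314.2 and 468.7 in DRB, against 113.1, 162.8 and 293.2 FPKM in Con (log2 fold change 1.59, limma adjusted p 0.0911). The 33 other processome genes had a median of -0.10, the 51 other large-subunit genes -0.08, the 11 other small-subunit maturation genes -0.17, the 12 other snoRNP genes 0.06, and the 15 tested genes of rDNA transcription and the nucleolus -0.13.

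Many assembly factors carry snoRNA genes within their own introns, from which snoRNAs are released when the host transcript is spliced. In GENCODE M21, 7 of the 40 (17.5%) span 21 annotated snoRNA genes on the same strand, against 190 of 9420 tested coding genes (2.02%). The hosts were Nop56 with 5, Nop58 with 4, Wdr43, Gnl3 and Ncl with 3 each, Tsr1 with 2 and Dkc1 with 1. Mature snoRNAs have no poly(A) tail, and 12 of the 21 were listed at 0 in all 6 libraries. Above 0 in every library was only Gm24451 within Nop56, at 299.5, 212.8 and 105.2 FPKM in DRB and 424.9, 120.2 and 487.0 FPKM in Con; it overlaps an exon of its host, so fragments of the pair cannot be told apart. The other 8 were above 0 in at most 4 libraries each. Among them, Gm23187 and Snord57 within Nop56 and Snora75 within Ncl also overlap an annotated exon of their host. Coding transcripts of the 40 were otherwise ordinary in make-up, with a median length of 2753 bases and a GC content of 48.4%, against 2852 bases and 49.0% in 9415 tested coding genes.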

How the data were processed

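RNA of mouse 4-cell embryos was amplified by Smart-Seq2 and sequenced as paired ends, per the labels' protocols. The authors deposited FPKM per gene with 2 decimals, per the file headers, 1 file for each library (3 DRB, 3 Con). The submitters' processing notes name cutadapt 1.16, STAR and mm10; which tool made the FPKM values, on which annotation and with what strand setting, the sources used here do not say. Because FPKM is a share of the library, higher abundant transcripts lower all others.

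The filter kept 11893 genes that reached 1 FPKM in 3 or more libraries. Their log2(FPKM + 1) values were fitted in limma 3.58.1 (R 4.3.3), where group was the only term and the prior variance followed mean expression. Two-sided p-values were adjusted by Benjamini-Hochberg over all of them, and a gene was called below 0.05. A log2 fold change is DRB minus Con on that scale, and the added 1 makes it too small for low genes. The fit was tested on data simulated from the real means and spreads. The labels do not tie replicates to separate cultures; p-values thus speak of how far these 6 libraries scatter, and that scatter may be technical.

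Fragments were estimated from low FPKM values of genes with 1 transcript of 500 to 1500 bases, by choosing the depth and a shortening of the length that brought them nearest to whole numbers; 73.6% to 85.3% then lay within 0.15 of one. Counts were not rebuilt, because the authors' gene lengths are unknown, and no count test was run. Positions, snoRNA genes and shared 50-base words come from GENCODE M21 (GRCm38, the assembly of mm10); 55154 of 55335 IDs matched without their version. Named with values of every library were called members and, in each role group, the most abundant and the 2 with the largest absolute log2 fold change (17 genes); Imp3, Mphosph10, Nop56, Pes1, Bop1 and Ncl were added after values were seen. The 40 members and the gene lists were chosen with earlier results of these data known. The planned comparison of protein sequences was not done. Alternatives were a pseudocount of 0.1, no filter, a mean of at least 5 FPKM, a replicate block, leaving out each library, median-of-ratios scaling, leaving out mitochondrial genes, and a threshold of 0.01. Other steps ran in Python 3.11.15 (pandas 2.3.3, numpy 2.4.6), and figures were drawn with matplotlib 3.10.9.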

Additional observations from a re-analysis of the deposited data

How the results depend on the processing

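The count of factors called lower was 1 (Imp4). It stayed 1 with a mean of at least 5 FPKM, median-of-ratios scaling and mitochondrial genes left out, and was 0 with a pseudocount of 0.1 (Imp4 adjusted p 0.0511), with no filter (0.238), at a threshold of 0.01 and, over the fits that left out 1 library, 0 to 1. Under none of these settings, nor with the replicate block, was another factor, or any gene of the wider pathway list, called. Factors at an unadjusted p below 0.05 were 1 lower with median-of-ratios scaling and 1 with mitochondrial genes left out, against 2, and 1 to 2 lower and 0 to 2 higher without 1 library. All genes called were 295. They were 164 with a pseudocount of 0.1, 6 with no filter, 50 at a threshold of 0.01 and 47 to 220 without 1 library; they were lowest without DRB replicate 1. The split of higher and lower calls was 182 and 113, and 223 and 84 with median-of-ratios scaling and 238 and 85 with mitochondrial genes left out, which moved the median of all genes to 0.03 from -0.09. The summed level of the 40 had a log2 ratio of -0.04, and 0.12 with mitochondrial genes left out, where each library's other genes are scaled up. Of the named factors, Tsr1 and Npm1 turned to 0.07 and 0.01 with median-of-ratios scaling and to 0.11 and 0.05 with mitochondrial genes left out. Over the fits without 1 library, Nop58 ranged from -0.06 to 0.60 and Fbl from -0.29 to 0.49, both lowest without DRB replicate 1 (Fbl was at -0.02 without Con replicate 1), and Tsr1 from -0.25 to 0.15, with 0.01 without Con replicate 3. For these changes the cause was not tested, apart from the construction of each setting.

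With the replicate block, 171 genes were called, 0 of the 40 among them (Imp4 adjusted p 0.0616). Over all tested genes, the deviations of same-numbered libraries correlated at -0.047, 0.053 and -0.051, so the replicate numbers show no pairing there. No source says what these numbers mark. Among the 40, replicate 1 was often the highest library in both groups (18 members in DRB, 15 in Con). Pairing among the 40 alone was not tested. The fewest fragments estimated behind any value of the 40 were about 600 (Bop1), and with 3 libraries per group the spread between them sets the width of the intervals given.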

Other observations

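Copies of assembly factors elsewhere in the genome were listed above 0 in the files, and their values are given here. Fbl shares 70.5% of its 50-base words with transcripts of Tulp4 and 67.2% with Gm5812, a processed pseudogene. Gm5812 had 10.9, 0.29 and 0 FPKM in DRB replicates 1 to 3 and was listed at 0 in all Con libraries; the library in which it stood out is the one in which Fbl was highest. Tulp4 had 11.8, 17.1 and 11.8 in DRB, against 27.5, 16.9 and 14.9 FPKM in Con.

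Among the copies of Npm1, Gm9118 had 234.8, 446.0 and 458.8 in DRB, against 795.5, 376.1 and 303.2 FPKM in Con, and Gm14681 had 237.3, 210.6 and 272.7 in DRB, against 224.2, 235.7 and 150.7 FPKM in Con. Gm49739, a pseudogene that shares 8.75% of the words of Nop56, stood at 103.2, 98.3 and 86.5 FPKM in DRB and 72.9, 130.1 and 82.5 FPKM in Con. Reads of a gene and its near-identical copies cannot be assigned with certainty, and the sources used here do not say how the authors counted them.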
